A study of Mus musculus with 90 samples.

Results

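The 8 genes described here encode proteins of amyloid precursor biology, the microtubule protein tau and the main lipid-carrying proteins of the brain: App, Aplp1, Aplp2, Mapt, Psen2, Bace1, Apoe and Clu. They were taken by name from the deposited gene table, and all 8 of 8 were found among its 19962 genes. The measurement was spatial profiling with the GeoMx instrument, in which light frees barcodes of RNA-bound probes from selected areas of a section for counting by sequencing. The tissue was mouse brain, fixed in formalin, embedded in paraffin and cut into sections of 5 µm. Areas were placed in the hippocampal fields CA1 and CA3, the motor cortex (MC), the somatosensory cortex (SS) and the choroid plexus (CP), whose epithelium makes cerebrospinal fluid. Chronic social stress (CSS) had been applied to 6 mice and 4 mice served as controls, and the sources used here give no strain, age or sex for them. Each area carried a label of p16 high or p16 low, p16 being a cell cycle inhibitor used as a marker of senescent cells, and the sources used here do not give how this label was assigned. In all there were 90 areas, 46 p16 high and 44 p16 low, of 100 possible, so that the 20 groups held 3 to 6 areas. CSS mouse 1169 had no CP area. Areas of 1 mouse share an animal, so the mouse was the replicate throughout.

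App encodes the amyloid precursor protein, a membrane protein that is cut by a chain of proteases. Bace1 encodes the beta-secretase that makes the first cut of the amyloid route, and Psen2 encodes a presenilin, a catalytic subunit of the gamma-secretase complex that makes the next. Aplp1 and Aplp2 encode the other two members of the precursor family, which lack the amyloid peptide. Mapt encodes tau, which binds microtubules in axons. Apoe encodes apolipoprotein E, the main lipid carrier made within the brain, largely by astrocytes, and Clu encodes clusterin, a secreted chaperone also called apolipoprotein J. On the RefSeq assembly GRCm38.p6 the genes are protein-coding and lie at chr1:180227004-180263467 (Psen2), chr7:19696244-19701310 (Apoe), chr7:30434980-30445582 (Aplp1), chr9:31149557-31211848 (Aplp2), chr9:45838545-45862484 (Bace1), chr11:104229409-104332090 (Mapt), chr14:65968483-65981548 (Clu) and chr16:84952666-85175255 (App).

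In the precursor family, App and Aplp1 were lower and Aplp2 higher in the choroid plexus than the mean of the other 4 subregions, so the sequence before the start of each of these 3 genes is shown. RefSeq promoter windows (GRCm38.p6) were at hand for 5 of the 8 genes, App, Aplp1, Aplp2, Psen2 and Apoe. Mapt, Bace1 and Clu are named only. Each sequence gives the 250 bases before the first listed start, 5′ to 3′ on the gene's own strand, which is the minus strand for all 3. Capitals mark GC boxes, the letters GGGCGG or their complement on the other strand. The windows are chr16:85173708-85173957 for App, chr7:30445583-30445832 for Aplp1 and chr9:31211849-31212098 for Aplp2, and the one for App lies inside the annotated span of that gene.
App: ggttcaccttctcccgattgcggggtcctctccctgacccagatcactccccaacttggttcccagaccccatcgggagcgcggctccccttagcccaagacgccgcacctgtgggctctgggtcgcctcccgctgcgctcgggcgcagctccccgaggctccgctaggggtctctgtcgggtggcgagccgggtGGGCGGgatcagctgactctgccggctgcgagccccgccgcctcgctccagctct
Aplp1: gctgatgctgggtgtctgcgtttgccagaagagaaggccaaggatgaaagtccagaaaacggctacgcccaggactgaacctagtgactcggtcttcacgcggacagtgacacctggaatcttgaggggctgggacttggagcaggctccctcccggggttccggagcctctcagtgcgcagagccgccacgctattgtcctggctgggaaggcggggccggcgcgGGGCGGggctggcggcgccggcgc
Aplp2: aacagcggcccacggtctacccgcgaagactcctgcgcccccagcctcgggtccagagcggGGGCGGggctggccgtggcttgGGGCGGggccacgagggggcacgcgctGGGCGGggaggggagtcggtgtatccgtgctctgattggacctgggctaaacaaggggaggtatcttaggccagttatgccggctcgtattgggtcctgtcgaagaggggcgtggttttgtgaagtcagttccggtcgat
App held 1 GC box, starting 55 bases before the start, and Aplp1 held 1, starting 24 bases before it. Aplp2 held 3, starting 189, 167 and 140 bases before its start, and was the only one of the 3 to hold the letters CCAAT on either strand, 2 times. Of 32851 RefSeq windows of this length 32.7% held a GC box and 33.8% held CCAAT. None of the 3 windows held TATAAA, which 12.4% of all windows held. GC content was 70.8% in App, 66% in Aplp1 and 66.4% in Aplp2, against a median of 52.4% over all windows. The Apoe window had 57.2% GC and none of these motifs, and the Psen2 window had 2 GC boxes. Both of these windows lie inside the annotated span of their gene. Apoe has 3 listed starts and Psen2 has 2, and only the window of the first was scanned. A match is a description of letters and not a site of binding.

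The deposited unit is a scaled signal, and the median over genes was 22.07 in every area. Recovered totals ran from 184469 to 2098984 counts per area. A negative control probe, which matches no mouse gene, gave 10.8 to 18.1 per area. No more than that was reached by 22.7% of the gene values. Marker genes were checked against the labelled subregions. The summed signal of 12 choroid plexus epithelium genes had a median of 102123 in CP and of 238 in CA1 to 448 in CA3 elsewhere, and that of 12 neuronal genes was 376 in CP against 6226 in SS to 12318 in CA3. Divided by the negative probe, the gene median was 1.34 in MC and 1.38 in SS, against 1.60 in CA3, 1.65 in CP and 1.75 in CA1. Control mouse 1175 had the deepest counts and the lowest gene median over the negative probe (1.30), and control mice 1151 (1.69) and 1182 (1.70) the highest. For the 8 genes in 5 subregions, mouse 1175 was the lowest mouse in 31 of 40 cases and mouse 1151 the highest in 21. The part of this ratio in the differences between mice was not tested.

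App (at least 287 counts in an area), Aplp1 (140), Aplp2 (59), Clu (55) and Apoe (43) exceeded the negative probe in 90 of 90 areas, and Mapt and Bace1 in 89. Psen2 did so in 87 and was the dimmest, with 5 to 79 counts in an area and a signal of 10.03 to 107. Bace1 had 2 to 151 counts. Signals of different genes come from different probes, so only the same gene is compared between places.

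Between CP and the mean of the other 4 subregions, all 8 genes passed the test, 4 higher and 4 lower in CP, where 43.3% of all genes passed (limma on log2(signal + 1) with the mouse as a block, 2-sided, Benjamini-Hochberg adjusted p under 0.05 over 19962 genes). The median log2 difference of the 8 was 0.15, against -0.03 over all genes. The 8 calls and their directions held under every alternative tried. Fewer cells of a type and less RNA per cell cannot be told apart in such areas.

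Apoe and Clu had the highest CP signals relative to the rest of the brain. Apoe reached 1300 in mouse 1175, a median of 2017 and 2557 in mouse 1151 in CP, whereas its medians elsewhere were 198 in CA1, 276 in CA3, 283 in MC and 268 in SS. Its CP values did not overlap those of any other subregion, whose highest mouse had 401. The log2 difference was 3.03 (SE 0.07, 8.19-fold, 2.62 to 3.30 in single mice, 9 of 9 higher, limma adjusted p = 1.1e-46). Clu had 1225, a median of 2200 and 2591 in CP, against medians of 199 in CA1, 238 in CA3, 213 in MC and 233 in SS. No other subregion exceeded 337 in any mouse. The log2 difference of Clu was 3.26 (SE 0.06, 9.55-fold, 9 of 9 higher, limma adjusted p = 9.0e-52). The summed signal of 12 astrocyte markers had a median of 458 in CP, against 636 in CA1 to 971 in CA3, and 9 of these markers were called lower and 2 higher in CP. Of 12 choroid plexus epithelium markers 11 were called higher. Markers of ependyma (7 of 8), mural cells (4 of 8) and endothelial cells (4 of 8, with 1 lower) were also called higher. Microglial markers had 1 of 12 called, higher in CP, and oligodendrocyte markers 11 of 12 called lower. Of all genes 43.3% were called in this comparison. The part of any of these cell types in the Apoe and Clu differences was not tested.

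Mapt was near background in CP. Its median was 144 in CA1, 179 in CA3, 114 in MC, 112 in SS and 19.6 in CP, which is 1.52 times the negative probe and below the median of all genes. In CP the mice ran from 13.8 to 27.4, below the lowest value of any mouse elsewhere, 74.8. The log2 difference was -2.68 (SE 0.08, 6.40-fold lower, 9 of 9 lower, limma adjusted p = 7.0e-39).

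Among the precursor family, Aplp2 was the member that was higher in CP. Its signal was 237 in the lowest mouse, 423 at the median and 515 in the highest in CP, against medians of 225 in CA1, 322 in CA3, 191 in MC and 204 in SS. Across mice the ranges of CP and CA3 overlapped, but within mice CP was higher in 9 of 9 (log2 0.83, SE 0.07, limma adjusted p = 2.1e-17). App had 421, a median of 761 and 1506 in CP, against medians of 1823 in CA1, 1655 in CA3, 832 in MC and 810 in SS. Its log2 difference was -0.52 (SE 0.10, limma adjusted p = 6.9e-06), lower in 8 of 9 mice. In single mice it ran from -1.46 (mouse 1151) to 0.18 (mouse 1170). For each gene the limma fit shares its residual variance across all subregions. The wide spread of App between mice in CP is therefore not fully covered by this SE and p. Aplp1 had 347, a median of 529 and 634 in CP, against medians of 1256 in CA1, 1123 in CA3, 609 in MC and 529 in SS. It was lower in 9 of 9 mice (log2 -0.66, SE 0.07, limma adjusted p = 1.4e-12). For both genes CP passed as lower against CA1 and CA3 and did not pass against MC or SS.

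The secretase genes moved in opposite directions. Psen2 had 30.4, a median of 45.9 and 73.6 in CP, against medians of 25.9 in CA1, 31.6 in CA3, 22.04 in MC and 23.0 in SS, and was higher in 9 of 9 mice (log2 0.84, SE 0.10, limma adjusted p = 2.45e-11). Bace1 had 18.4, a median of 31.9 and 44.1 in CP, against medians of 48.3 in CA1, 59.4 in CA3, 39.3 in MC and 42.7 in SS, and was lower in 9 of 9 mice (log2 -0.57, SE 0.09, limma adjusted p = 5.4e-08). The lowest Bace1 value, that of mouse 1170, rests on 8 and 2 counts in its areas.

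**Figure D1:**
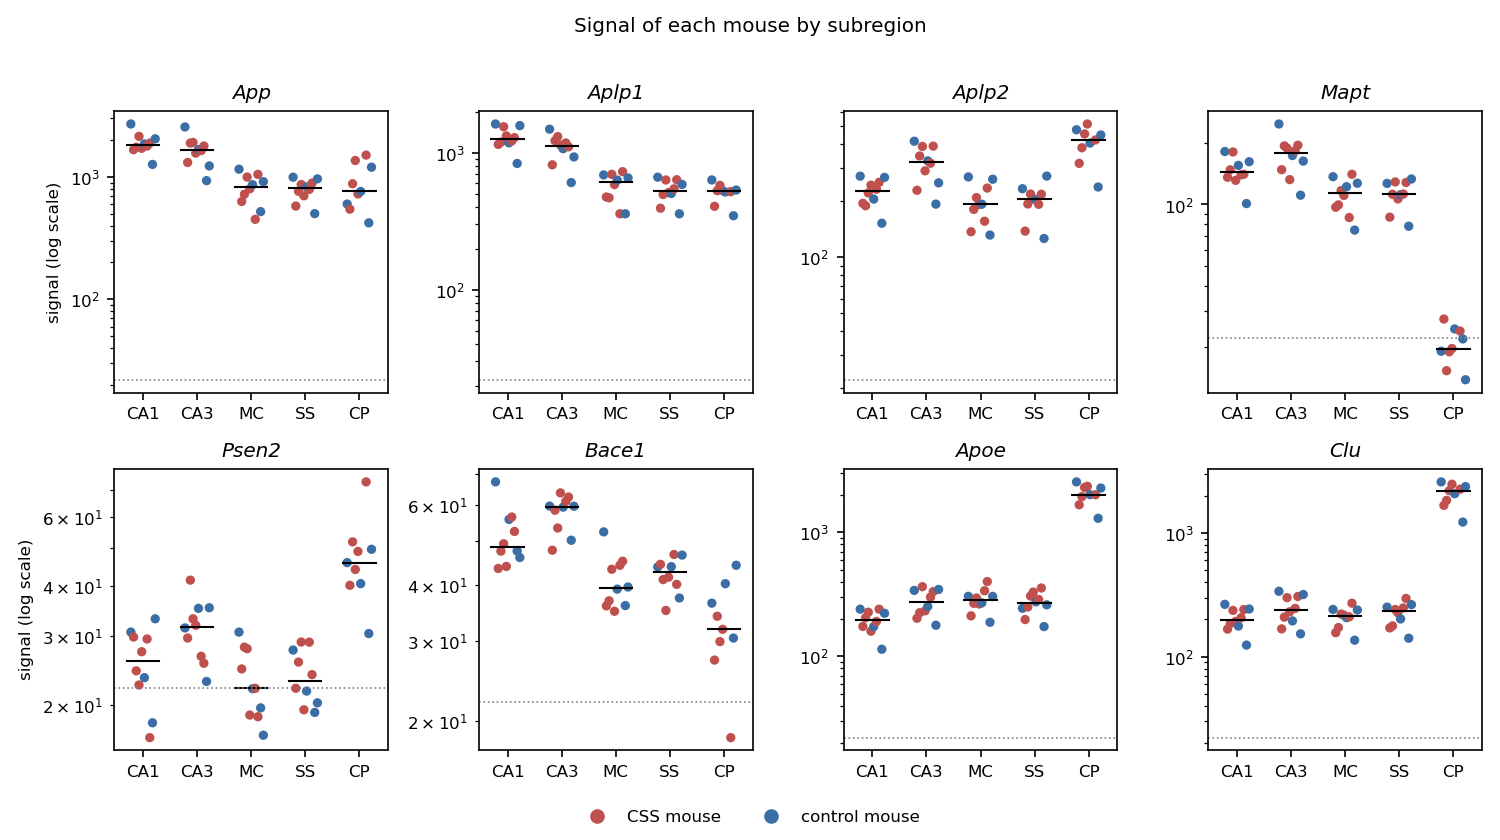
Signal of the 8 genes on log axes (each panel has its own range) in each mouse, with the p16 high and low areas of a mouse averaged, by subregion; bars are medians over 9 or 10 mice and the dotted line is the common gene median of 22.07. Apoe and Clu stand at 1225 or more in every CP mouse and at 401 or less elsewhere, and Mapt in CP lies around the gene median.

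Cortex and hippocampus were compared as the mean of MC and SS against the mean of CA1 and CA3. Under the deposited scaling 7 of 8 genes passed, where 50.8% of all genes passed: Apoe was higher in cortex and App, Aplp1, Aplp2, Mapt, Psen2 and Bace1 lower. Of all genes 3286 were called higher and 6861 lower, but 12459 and 3727 with scaling to the 75th percentile, 8096 and 6264 with edgeR and 2714 and 3151 with quantile normalization. The directions of the lower genes depended on scaling, and those of all but Apoe turned in at least 1 alternative. App differed by -1.14 (SE 0.08, lower in 10 of 10 mice, limma adjusted p = 4.0e-19) and Aplp1 by -1.11 (SE 0.06, lower in 10 of 10 mice, limma adjusted p = 3.7e-25), but with quantile normalization, which gives every area the same distribution, the values were 0.13 and 0.04. Mapt went from -0.51 to 0.33, Aplp2 from -0.42 to 0.53 and Bace1 from -0.38 to 0.09. With quantile normalization App (limma adjusted p = 0.038), Aplp2 (1.4e-18) and Mapt (1.3e-07) passed as higher in cortex. Aplp1 (limma adjusted p = 0.39) and Bace1 (0.36) did not pass there. Psen2 went from -0.26 to 0.09 with scaling to the 75th percentile, which moved the median difference of all genes by 0.34. Apoe was higher in cortex under all of them, at 0.26 as deposited (SE 0.06, 9 of 10 mice, limma adjusted p = 1.2e-04), 1.23 with quantile normalization and 0.62 at the 75th percentile. Clu did not pass as deposited (-0.05, SE 0.05, limma adjusted p = 0.35) and passed as higher with quantile normalization (0.88) and at the 75th percentile (0.31). Neuronal markers moved in the same way, with 10 of 12 called lower in cortex as deposited but 6 higher and 4 lower with quantile normalization. Of the astrocyte markers 7 of 12 were called higher and 1 lower in cortex, and of the oligodendrocyte markers 11 of 12 higher. Microglial (8 of 12), endothelial (5 of 8) and mural cell markers (5 of 8) were also called higher in cortex, none of them lower, and choroid plexus epithelium markers were split, 3 of 12 higher and 2 lower. The part of these cell types in the differences was not tested.

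Ranks within an area do not depend on how areas are scaled, although they mix probes of unlike yield. App was at a median rank of 11.5 of 19962 genes in CA1, 15.3 in CA3, 10.8 in MC, 10 in SS and 42 in CP, so that its high rank in cortex resembled that in hippocampus while its signal was lower. Aplp1 was at 20.3 in CA1, 32.3 in CA3, 24.3 in MC, 25 in SS and 69 in CP. Apoe stood at 714 in CA1, 396 in CA3, 128 in MC, 109 in SS and 7 in CP. Clu took a like course, from 663 in CA1 to 457, 211 and 169 in CA3, MC and SS, and 7 in CP. Aplp2 rose in rank from 580 in CA1 and 305 in CA3 to 226 in MC, 216 in SS and 107 in CP. Mapt was at 1090 in CA1, 680 in CA3, 626 in MC, 589 in SS and 10874 in CP.

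CA3 against CA1 gave 4 of 8 calls, where 19.8% of all genes passed, 1294 higher and 2659 lower as deposited, but 3504 and 1464 at the 75th percentile and 1306 and 1280 with quantile normalization. Scaling to the 75th percentile moved the median of all genes by 0.15. Aplp2 was higher in CA3 (log2 0.48, SE 0.08, 9 of 10 mice, limma adjusted p = 2.4e-06), as were Apoe (0.49, SE 0.08, 10 of 10 mice, limma adjusted p = 2.3e-06) and Clu (0.25, SE 0.07, 10 of 10 mice, limma adjusted p = 0.0051). Aplp1 was lower (-0.27, SE 0.09, 9 of 10 mice, limma adjusted p = 0.016). App (-0.22), Mapt (0.21), Psen2 (0.30) and Bace1 (0.18) did not pass. Over the alternatives 2 to 7 genes passed, and Aplp2 and Apoe passed in all. Aplp1 lost its call in 6 of 19 alternatives: without the mouse as a block (adjusted p = 0.37), at the 75th percentile (-0.11, adjusted p = 0.25), in p16 high areas alone (0.13), and without mouse 1152 (0.061), 1175 (0.053) or 1182 (0.073). Clu lost its call in 2, without the mouse as a block (adjusted p = 0.31) and in p16 high areas alone (0.28). Markers of astrocytes and oligodendrocytes differed in the same comparison, with 5 of 12 astrocyte and 7 of 12 oligodendrocyte genes called higher in CA3 and none lower. Microglial markers had 1 of 12 called, higher in CA3, and neuronal markers had 4 of 12 higher and 3 lower. Of the 12 choroid plexus epithelium markers 3 were called higher and 1 lower in CA3, 11 lay above 0 and their median was 0.29. The part of these cell types in the differences of Aplp2, Apoe and Clu was not tested. Between MC and SS none of the 8 genes passed with limma (log2 -0.09 to 0.09, none at an unadjusted p under 0.05), where 0.00501% of all genes passed, 1 gene in number, and 503 had an unadjusted p under 0.05; edgeR called 10 genes there.

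**Figure D2:**
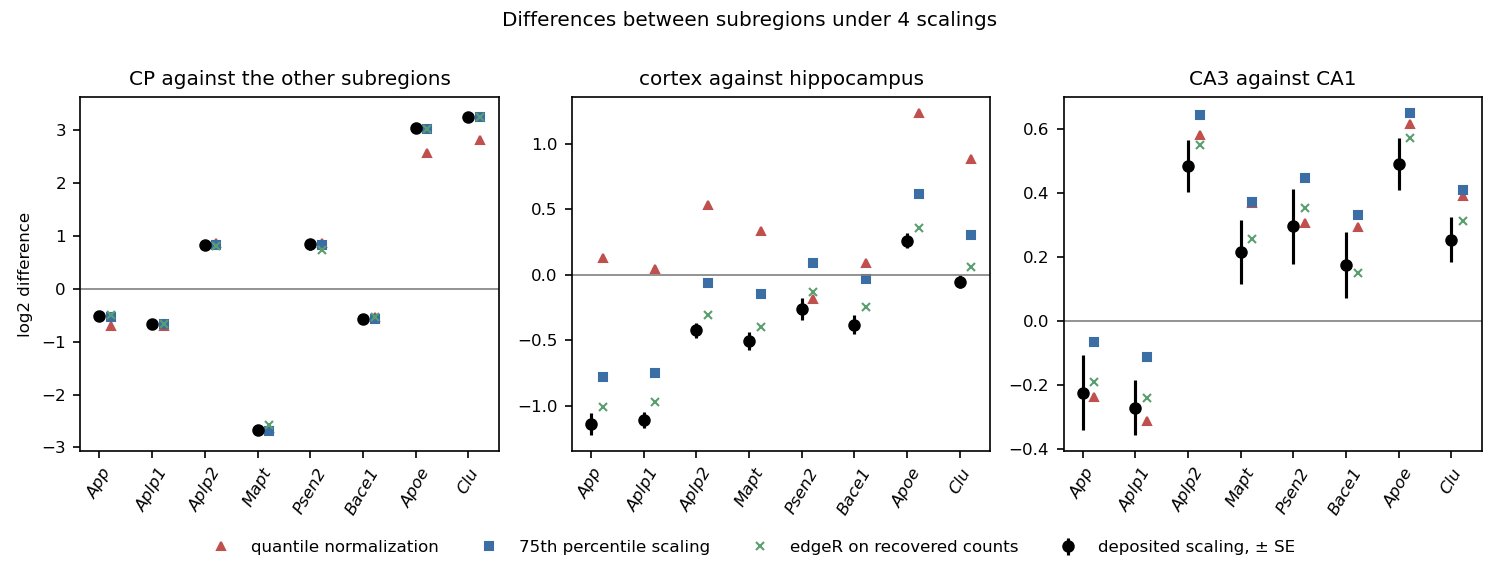
Log2 difference of each gene in 3 comparisons of subregions, as deposited with SE from limma (black) and under 3 other treatments of the scaling. In CP all treatments lie together, whereas between cortex and hippocampus the values for App run from -1.14 to 0.13.

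Pairwise contrasts of the subregions give the order of the levels under the deposited scaling. Of the 8 genes, 8 passed between CP and CA1 (45.8% of all genes), 8 between CP and CA3 (40.6%), 6 between CP and MC (39.6%) and 6 between CP and SS (40.2%). Between cortex and hippocampal fields, 6 passed for MC and CA1 (47.8%), 5 for SS and CA1 (45.2%), 7 for MC and CA3 (30.3%) and 6 for SS and CA3 (30.6%). App and Aplp1 were highest in CA1, followed by CA3, with MC, SS and CP below. Among those 3 no difference passed for either gene: CP minus MC was 0.04 for App and -0.14 for Aplp1, and CP minus SS was 0.06 and -0.08. For App the neighbours CA1 and CA3 did not pass either. Aplp2 ran CP, CA3, CA1, SS and MC, and SS against CA1 did not pass (-0.17, limma adjusted p = 0.082). Mapt and Bace1 ran CA3, CA1, the cortical areas, and CP last, with CA3 and CA1 not passing for either. Psen2 ran CP, CA3, CA1, SS and MC, with no difference passing among CA1, SS and MC or between CA3 and CA1. Apoe ran CP, MC, CA3, SS and CA1, with no difference passing among MC, CA3 and SS. Clu ran CP, CA3, SS, MC and CA1; CA3 passed against MC and CA1 but not against SS.

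Ratios of a pair of genes in the same area drop any common scaling factor, but not a difference between areas in signal over background. These 6 ratios were chosen after the values were seen, and each was tested in 3 comparisons with exact 2-sided sign-flip tests over mice, adjusted over the 18 tests. Aplp2 over App was higher in CP than elsewhere by log2 1.35 ± 0.54 (SD, n = 9 mice, all positive, exact p = 0.0039, adjusted 0.0054, the smallest p this number of mice allows). The same ratio was higher in cortex than hippocampus by 0.71 ± 0.13 (SD, n = 10, all positive, exact p = 0.0020, adjusted 0.0050) and in CA3 than CA1 by 0.71 ± 0.16 (SD, n = 10, all positive, exact p = 0.0020, adjusted 0.0050). Against Aplp1 the values of Aplp2 were 1.49 ± 0.16, 0.68 ± 0.19 and 0.76 ± 0.17, again positive in every mouse. Psen2 over Bace1 was higher in CP by 1.40 ± 0.73 (SD, n = 9, all positive, exact p = 0.0039, adjusted 0.0054) and did not pass in the other comparisons. In CP every mouse already had Psen2 higher and Bace1 lower, so this sign and p were fixed in advance and add no support. The same holds for Aplp2 over Aplp1 in CP. Mapt over App was lower in CP by 2.16 on the log2 scale and higher in cortex by 0.63 and in CA3 by 0.44, with the same sign in every mouse. Sign and p were likewise fixed wherever the single-mouse differences of both genes did not overlap, and add no support there. In CP Aplp2 was at least 0.67 and App at most 0.18, and Mapt was at most -1.99 and App at least -1.46. In cortex against hippocampus Aplp2 was at least -0.65 and Mapt at least -0.70. App was at most -0.76 there and Aplp1 at most -0.81.

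Apoe and Clu did not keep a fixed ratio. Apoe over Clu was lower in CP than elsewhere (log2 -0.22 ± 0.11, SD, n = 9, all negative, exact p = 0.0039, adjusted 0.0054). It was higher in cortex than hippocampus (0.31 ± 0.12, SD, n = 10, all positive, exact p = 0.0020, adjusted 0.0050) and in CA3 than CA1 (0.24 ± 0.14, SD, n = 10, 9 positive, exact p = 0.0039, adjusted 0.0054).

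App over Aplp1 did not differ beyond the spread in any of the 3 comparisons (log2 0.14 ± 0.56 in CP, -0.03 ± 0.10 in cortex and 0.05 ± 0.07 in CA3, exact p = 0.50, 0.36 and 0.051). Outside CP the log2 ratio stayed between 0.33 and 0.76 in every mouse and subregion, with an SD of 0.10 to 0.12. In CP it ran from -0.08 in mouse 1151 to 1.53 in mouse 1170, with an SD of 0.52. This spread came with App and not with Aplp1: the CP signal of App differed 3.57-fold between mice, and that of Aplp1 1.83-fold. The areas of 1 mouse lay closer together. App had 1523 and 1490 in the p16 high and low CP areas of mouse 1170, 1113 and 1609 in mouse 1162, 1025 and 733 in mouse 1157, 771 and 751 in mouse 1168, 600.2 and 599.9 in mouse 1151, 664 and 427 in mouse 1152, and 391 and 452 in mouse 1175. The single CP areas of mice 1182 and 1163 had 1200 and 726. The fold between the areas of a mouse had a median of 1.15 and a highest value of 1.56. High values occurred in both groups, in CSS mice 1170 and 1162 and in control mouse 1182.

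**Figure D3:**
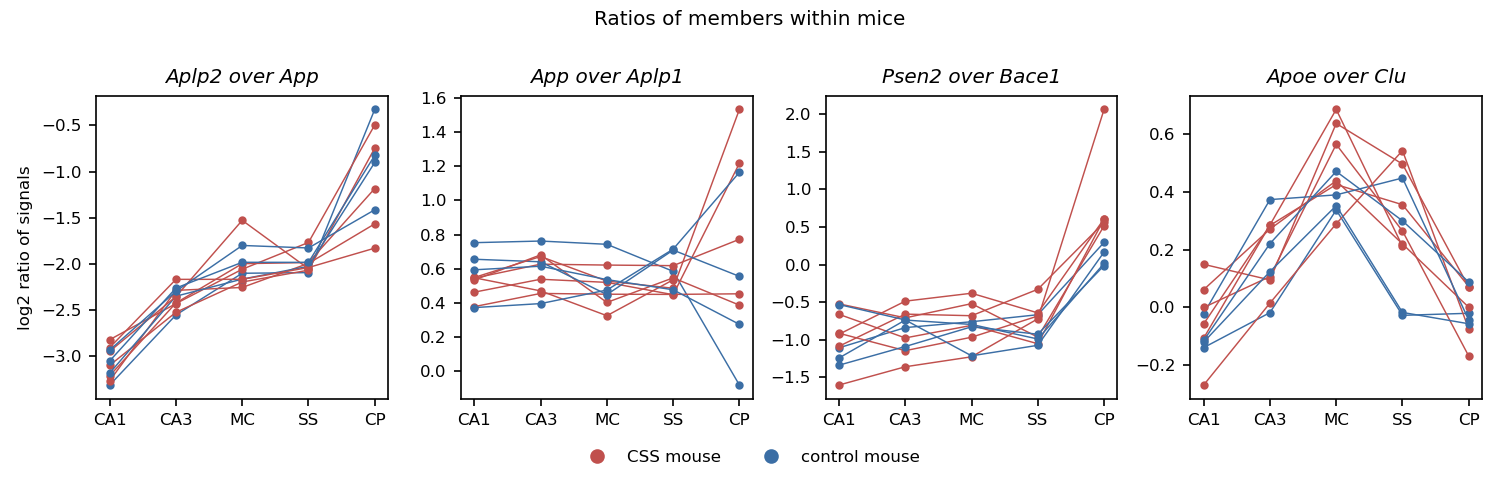
Log2 ratios of the signals of 4 pairs of genes in each mouse by subregion, with a line per mouse. Aplp2 over App is lowest in CA1 in all 10 mice and highest in CP in all 9 that have it, and App over Aplp1 is narrow outside CP and ranges from -0.08 to 1.53 within it.

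Other genes of the same routes were taken from 3 lists that hold none of the 8 genes. Of 25 measured genes of amyloid processing and clearance 20 were called in CP, 11 higher and 9 lower, with a median of 0.18, where 43.3% of all genes were called, 4263 higher and 4381 lower. The 4 of smallest p were adaptors and a sorting receptor of the precursor protein, all lower in CP: Apba2 (-3.40, SE 0.10), Apba1 (-2.81, SE 0.10), Apbb1 (-1.72, SE 0.07) and Sorl1 (-2.11, SE 0.09). Between cortex and hippocampus, where 50.8% of all genes were called, 2 of the 25 were called higher and 19 lower as deposited, 5 and 9 with quantile normalization, and 6 and 14 at the 75th percentile. Itm2b (-1.76, SE 0.06) and Itm2c (-1.47, SE 0.08), which encode BRI family proteins that bind the precursor, had the smallest p as deposited, followed by Rtn3 and Apba2. In CA3 against CA1, where 19.8% of all genes were called, 1 was called higher and 9 lower as deposited, and 4 and 6 with quantile normalization.

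Of 21 tau kinase, phosphatase and microtubule genes 18 were called lower in CP and 0 higher, where 43.3% of all genes were called, 4381 of them lower. The list's median was -1.83 against -0.03 over all genes. The smallest p belonged to the stathmin genes Stmn2 (-3.66, SE 0.09), Stmn3 (-4.41, SE 0.11) and Stmn1 (-3.26, SE 0.08), whose proteins bind tubulin, and to Map1a (-3.59, SE 0.10). Stmn2 and Tubb3 of this list are also among the neuronal markers, and all 12 neuronal markers were lower in CP. In cortex against hippocampus (50.8% of all genes called) the list split into 1 higher and 17 lower as deposited, and into 8 higher and 5 lower with quantile normalization. In CA3 against CA1 (19.8% of all genes called) the list had 2 higher and 5 lower as deposited, and 4 and 3 with quantile normalization.

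Of 20 genes for apolipoproteins, lipid transport and their receptors, 11 were called higher and 4 lower in CP, with a median of 0.48, where 43.3% of all genes were called. Pltp, which encodes phospholipid transfer protein, was higher (3.51, SE 0.09), as was the cholesterol exporter gene Abca1 (1.68, SE 0.11), and Pld3 (-1.24, SE 0.06) and the sorting receptor gene Sort1 (-1.26, SE 0.07) were lower. In cortex, where 50.8% of all genes were called, 6 were higher and 7 lower as deposited, but 8 and 4 with quantile normalization and 13 and 5 at the 75th percentile. Sort1 had the smallest p there (-1.67, SE 0.06). CA3 against CA1, where 19.8% of all genes were called, gave 3 higher and 4 lower as deposited, and 7 and 1 at the 75th percentile. In MC against SS no gene of the 3 lists passed.

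Likeness in pattern was measured as Pearson's r of log2(signal + 1) over 49 means per mouse and subregion, among 17353 genes with a mean signal above the negative probe. These points share mice and scaling, and the values are a description. The genes most like App were Ociad1 (0.96), Actg1 (0.96) and Atp1b1 (0.95), and for Aplp1 they were Arf5 (0.99), Gpm6a (0.98) and Ywhae (0.98). Aplp2 was most like Cox7b, Cox6a1 and Lamp1 (each 0.94), and Mapt most like Stmn3, Ndrg4 and Syn1 (each 0.99). Psen2 had the least close neighbours, Furin (0.85), Ninj1 (0.85) and Atox1 (0.84), followed by Bace1 with P4htm (0.89), Rnf165 (0.88) and Brinp2 (0.85). Apoe and Clu were each other's closest gene of all (0.98), next to Epas1 (0.98) and Fads1 (0.97) for Apoe and Ctsd (0.98) and Abhd2 (0.98) for Clu. Within the 8, App and Aplp1 had r = 0.94, while App and Aplp2 had 0.36 and Aplp1 and Aplp2 0.26. Mapt had -0.88 with Apoe and -0.87 with Clu. These values and that of Apoe with Clu include CP, where Mapt differed by -2.68, Apoe by 3.03 and Clu by 3.26. In CA3 against CA1 the differences of Mapt (0.21), Apoe (0.49) and Clu (0.25) were all positive. In cortex against hippocampus they were -0.51, 0.26 and -0.05 as deposited. No r without CP was computed.

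The p16 label was compared within mice over 34 pairs of a p16 high and a p16 low area in CA1, CA3, MC and SS. None of the 8 genes passed (limma with the mouse as a block), where 0.386% of all genes passed, 77 genes, all higher in p16 high areas. These 77 calls fell to 0 with quantile normalization, with scaling to the 75th percentile, without the mouse as a block, without mouse 1151 and without mouse 1175. They numbered 4 without mouse 1162, 7 without 1170, 9 without 1169, 10 without 1157, 123 without 1152, 132 without 1168 and 256 without 1182, and 151 with edgeR. The family members had the lowest p of the 8: Aplp1 differed by 0.16 (SE 0.05, higher in 9 of 10 mice, limma adjusted p = 0.11), App by 0.14 (SE 0.05, 8 of 10 mice, limma adjusted p = 0.14) and Aplp2 by 0.13 (SE 0.05, 9 of 10 mice, limma adjusted p = 0.20). Aplp1 passed in 1 alternative, without mouse 1182 (0.19, limma adjusted p = 0.040), and over the alternatives its adjusted p was otherwise above 0.05. The ratio of gene median to negative probe was also above that of p16 low areas, by log2 0.047, in 9 of 10 mice, and its part in these values was not tested. Of the 12 neuronal markers 1 was called higher in p16 high areas and 11 lay above 0, and their summed signal had a median of 9308 in p16 high and 8631 in p16 low areas; their part was not tested either. With quantile normalization App was at -0.04 and Aplp1 at 0.03. Apoe (-0.08, SE 0.05), Clu (-0.03, SE 0.05), Mapt (0.07, SE 0.05), Psen2 (-0.09, SE 0.09) and Bace1 (0.01, SE 0.08) did not pass either.

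The p16 label was also compared within each subregion. In CA1, App had 1375, a median of 1868 and 3132 in p16 high areas and 1153, a median of 1740 and 2277 in p16 low areas of the same 8 mice. The ranges overlapped, and the high area exceeded the low one in 8 of 8 mice (log2 0.22, SE 0.06, limma adjusted p = 0.066). Aplp1 in CA1 differed by 0.27 (SE 0.06, 7 of 8 mice, limma adjusted p = 0.056). None of the 8 genes passed in CA1, where 0.0902% of all genes passed, 18 in number. In CA3, App had medians of 1957 and 1532 and was higher in 8 of 8 mice (0.37, SE 0.12, limma adjusted p = 0.20), and Aplp1 in 7 of 8 (0.30, SE 0.12, limma adjusted p = 0.27). Apoe was lower in 7 of 8 mice there (-0.28, SE 0.11, limma adjusted p = 0.27). In MC (App -0.01, SE 0.05; Aplp1 0.06, SE 0.06) and SS (0.02, SE 0.09, and 0.02, SE 0.08) both were near 0. Whether the p16 difference of App depends on subregion was not tested. The ratio of gene median to negative probe was also higher in the p16 high area of every CA3 pair (1.76 against 1.57 in mouse 1151). It was higher there in most CA1 pairs and went both ways in MC and SS. Its part in the values of each subregion was not tested. With limma no gene of the table passed in CA3, MC, SS or CP (0%), and 2654, 996, 898 and 1046 genes had an unadjusted p under 0.05 in turn; edgeR, run for CP, called 6.

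In CP, with both labels in 7 mice, Clu was lower in p16 high areas in 7 of 7 mice (-0.18, SE 0.05) and Apoe in 7 of 7 (-0.16, SE 0.06), Aplp1 (-0.22, SE 0.08) in 6 of 7 and Aplp2 (-0.15, SE 0.07) in 5 of 7. None passed (limma adjusted p = 0.89 for each). Of the 12 choroid plexus epithelium markers 10 lay below 0 in the same comparison, with a median of -0.12 and none called, and their part was not tested. App (0.06, SE 0.10), Mapt (-0.16, SE 0.20), Psen2 (0.14, SE 0.18) and Bace1 (0.24, SE 0.21) did not pass. Of the pathway lists, Itm2c alone passed for the p16 label in hippocampus and cortex (0.22, SE 0.05, limma adjusted p = 0.036), among 25 amyloid, 21 tau and 20 lipid genes. No gene of the table, and so not this gene, was called with quantile normalization, with scaling to the 75th percentile, without the mouse as a block, or without mouse 1151 or 1175. Levels are not shown to be alike by a test that was not passed.

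**Figure D4:**
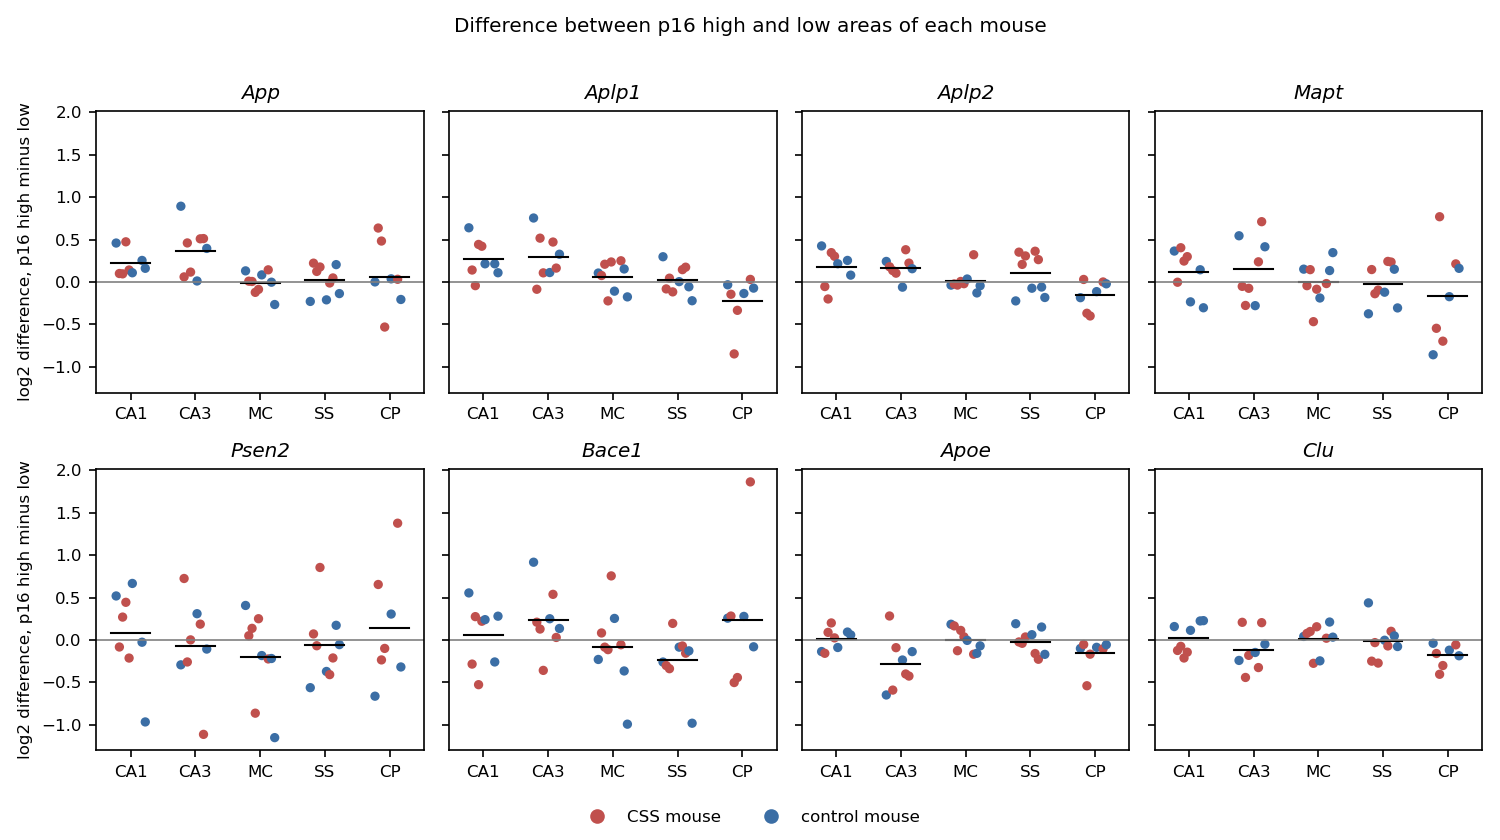
Log2 difference between the p16 high and p16 low area of each mouse, by gene and subregion (7 to 9 mice); bars are means. App lies above 0 in all 8 mice in CA1 and in CA3 and around 0 in MC and SS, and none of the differences passed.

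For CSS against control mice, each mouse gave 1 value and 6 mice stood against 4. None of the 8 genes passed in hippocampus and cortex together, in CP, or in CA1, CA3, MC or SS alone, and neither did any gene of the table with limma (0% in each). At an unadjusted p under 0.05 there were 391 genes in hippocampus and cortex, of which none was among the 8, 655 in CP, 565 in CA1, 574 in CA3, 556 in MC and 737 in SS, and edgeR called 0 in hippocampus and cortex and 2 in CP. Over hippocampus and cortex the differences ran from -0.06 (Bace1, SE 0.12) to 0.15 (Apoe, SE 0.22), with App at -0.04 (SE 0.42) and Mapt at 0.00011 (SE 0.17). With this SE a change in App of that size could not be told from none. The control group held both the highest mouse for App in CA1 (1151, at 2705) and the lowest (1175, at 1264), and the CSS mice lay between them at 1669 to 2143. Without mouse 1175 the differences of Mapt, Aplp1 and Clu were -0.19, -0.17 and -0.13, and without mouse 1151 App was at 0.14, and none of these passed. Over all fits that left out a mouse, App ran from -0.26 to 0.14 and Aplp2 from -0.24 to 0.089, and neither passed.

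The largest differences of the 8 between the groups were in CP. Bace1 had 36.4, 40.2, 30.5 and 44.1 in control mice 1151, 1168, 1175 and 1182 and 27.3, 34.1, 29.9, 31.9 and 18.4 in CSS mice 1152, 1157, 1162, 1163 and 1170. The groups overlapped, with control mouse 1175 within the CSS range. The log2 difference was -0.48 (SE 0.21, unadjusted p = 0.033, limma adjusted p = 0.999, with 655 genes of the table at an unadjusted p under 0.05). Over 14 alternatives it ran from -0.57 to -0.29 and did not pass. The value of CSS mouse 1170 rests on few counts, as given above. App in CP had 600.1, 761, 421 and 1200 in the same control mice and 545, 879, 1361, 726 and 1506 in the CSS mice (0.42, SE 0.32, limma adjusted p = 0.999). Psen2 was at 0.28 (SE 0.19), and Apoe (0.04), Clu (0.05), Aplp1 (0.02), Aplp2 (0.12) and Mapt (0.07) were nearer 0.

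The stress and p16 labels were also tested together. None of the 8 genes passed for a p16 difference that depends on stress (0% of all genes passed with limma, 663 at an unadjusted p under 0.05), with values from -0.13 (Clu) to 0.15 (Aplp2). Nor did any pass for a stress difference in CP unlike that in hippocampus and cortex (0% of all genes, 702 at an unadjusted p under 0.05), where App was at 0.43 (SE 0.20) and Bace1 at -0.39 (SE 0.23). No gene of the 3 pathway lists passed in either test, or between CSS and control mice in hippocampus and cortex or in CP.

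**Figure D5:**
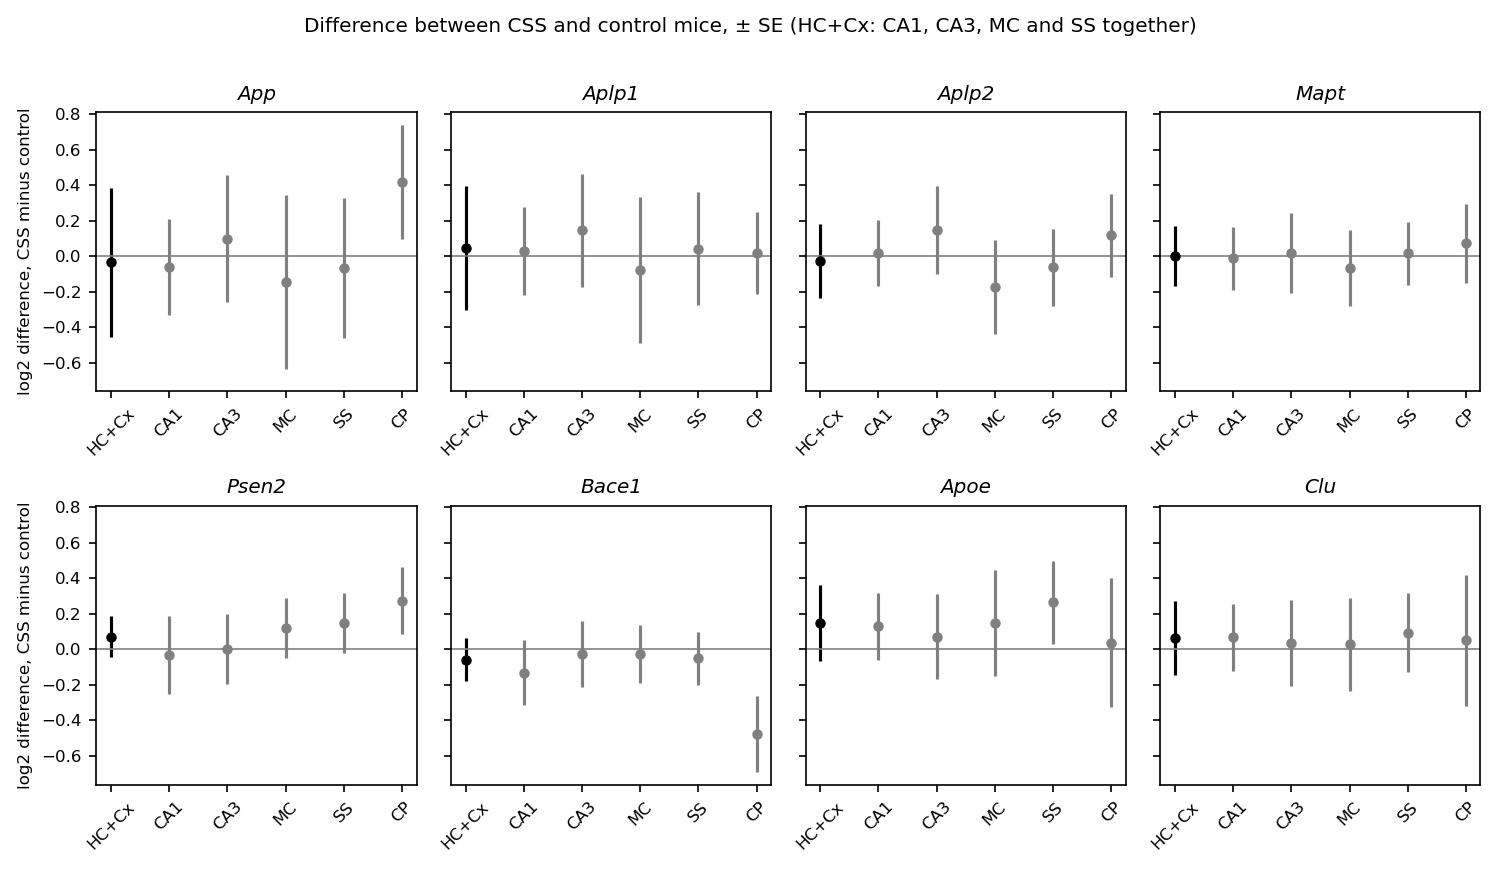
Log2 difference between CSS and control mice with SE from limma, for hippocampus and cortex together (black) and each subregion (grey). Most intervals of 1 SE hold 0, the exceptions being App, Psen2 and Bace1 in CP and Apoe in SS, and none of the differences passed.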

How the data were processed

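The authors deposited 1 table of signal values per gene and area, scaled to a common median per area, as the values show; the submitters' processing notes name the build mm10, and the sources used here do not give the read processing. All 90 value columns matched a sample by its title. Counts were recovered in all 90 areas by a search for the count of the median that makes values whole. This gave whole counts for at least 99.985% of values (tolerance 0.01). A separate check of the step used the lowest values in 55 areas and the median in 35. Main fits used log2(signal + 1), so folds of dim genes are understated, with limma 3.58.1 in R 4.3.3 (lmFit, eBayes with trend). Subregions were compared on 1 mean per mouse and subregion and p16 labels on paired areas, with the mouse as a block. For stress, values were centred within subregion and p16 label and averaged per mouse, with 5 or 6 CSS mice against 4. Areas were paired by the mouse named in their labels; deviations of paired areas correlated at a median of 0.07, with 11 of 34 pairs over 0.1. Alternatives were log2(signal + 10), genes above the negative probe, quantile normalization, no block, edgeR 4.0.16 on recovered counts, each p16 label alone, leaving out each mouse, and, chosen after seeing the data, 75th percentile scaling and leaving out the CA3 areas of mouse 1175. The fits were tested on simulated data with independent areas and no mouse or background effect. That test therefore does not cover such effects in the real areas. The 8 genes, the gene lists and the comparisons were chosen with earlier results of these data known. All 8 genes were named by rule, as were the 3 genes most alike to each and up to 4 genes of smallest p per pathway list; other names were chosen after their values were seen.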

Additional observations from a re-analysis of the deposited data

Results flagged for a closer look

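In 128 groups of 4 to 10 mice, 1 mouse stood apart from the rest in 14. A rate of 1 in 20 would give 6.4, but the groups share mice and areas, so no excess can be read from this. Mouse 1170, with the lowest mean count per area, stood apart in CP for Psen2 (log2 difference from the other subregions 1.64, the others 0.57 to 1.01), Bace1 (-1.66, the others -0.63 to -0.06) and Apoe (2.62, the others 2.96 to 3.30), and in the p16 difference of Bace1 in CP (1.86, the others -0.50 to 0.28), which rests on 8 and 2 counts. Mouse 1157 stood apart in the p16 difference in CP for Aplp1 (-0.85) and Apoe (-0.54). Mouse 1169 stood apart in MC against SS for App (-0.81) and Aplp1 (-0.60). Aplp2 had 138 in SS of mouse 1152 against 191 to 217 in the other CSS mice. Its CP difference was 1.17 in mouse 1163, and its difference of cortex from hippocampus was 0.042 in mouse 1182 and negative in the other 9. Mapt had 181 in CA1 of mouse 1162 against 131 to 148 in the other CSS mice. Bace1 had 50.1 in CA3 of mouse 1175 against 59.3 to 59.6 in the other control mice, and its difference of cortex from hippocampus was -0.18 in mouse 1152.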

How the results depend on the processing

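The 8 differences of CP from the other subregions kept their direction and passed in every alternative. Between cortex and hippocampus, quantile normalization gave 5865 genes called and App 0.13, Aplp1 0.040, Aplp2 0.53, Mapt 0.33, Bace1 0.092 and Clu 0.88. There 75th percentile scaling gave 16186 genes, Psen2 0.086 and Clu 0.31, and edgeR gave Clu 0.058. In CA3 against CA1, 7 of the 8 genes passed with quantile normalization (2586 genes in all), 2 with no replicate block and 2 in p16 high areas alone (2376 genes). In MC against SS, 19 genes passed with quantile normalization, 10 with edgeR, 0 with no replicate block, 0 in p16 low and 0 in p16 high areas alone, and 0 to 2 leaving out a mouse. For p16 in hippocampus and cortex, genes called numbered 129 with log2(signal + 10), 151 with edgeR, 0 with quantile normalization, 0 with 75th percentile scaling, 0 without the mouse as a block and 0 to 256 leaving out a mouse, when 0 to 1 of the 8 passed. There quantile normalization gave App -0.041, Aplp2 -0.0091, Mapt -0.056 and Bace1 -0.098, edgeR gave Bace1 -0.048, 75th percentile scaling gave Mapt -0.015 and Bace1 -0.077, and leaving out a mouse gave Bace1 -0.047 to 0.070. For p16 in CP, edgeR called 6 genes, and leaving out a mouse gave 0 to 2 genes and App -0.031 to 0.16, Psen2 -0.061 to 0.28 and Bace1 -0.036 to 0.36. For CSS in hippocampus and cortex, Mapt was -0.0016 with log2(signal + 10) and -0.010 with quantile normalization, and edgeR gave Aplp1 -0.043 and Mapt -0.034. Leaving out a mouse gave App -0.26 to 0.14, Aplp1 -0.17 to 0.18, Aplp2 -0.24 to 0.089, Mapt -0.19 to 0.12, Psen2 -0.021 to 0.17, Bace1 -0.12 to 0.0055, Apoe -0.026 to 0.24 and Clu -0.13 to 0.19. For CSS in CP, genes called numbered 1 with quantile normalization (Aplp1 -0.093 and Clu -0.067), 2 with edgeR (Aplp1 -0.0024, Mapt -0.034 and Apoe -0.0013) and 1 with 75th percentile scaling (Aplp1 -0.023 and Apoe -0.0023), and leaving out a mouse gave Aplp1 -0.16 to 0.13, Aplp2 -0.11 to 0.23, Mapt -0.053 to 0.19, Apoe -0.17 to 0.16 and Clu -0.19 to 0.18. The cause of these changes was not tested. Psen2 and Bace1 are limited by counts, as low as 5 and 2 in an area.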
